A study of Mus musculus with 12 samples.

Results

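Sodium, calcium and HCN channel genes were examined in RNA sequencing of the mouse dorsal raphe (DR), the midbrain nucleus that holds most serotonergic neurons projecting to the forebrain. The genes were chosen by symbol, as those beginning with Scn or Hcn and a digit, or with Cacna, Cacnb or Cacng, that had at least 120 counts summed over 12 libraries. Of 24421 genes listed, 44 symbols matched and 38 passed this minimum. The 6 that did not were Scn4a, Scn10a, Scn11a, Cacna1f, Cacng1 and Cacng6, of which Scn11a had the most (77 counts). The gene just inside was Cacna1s, with 195 counts. The 38 genes comprised 7 sodium channel alpha subunits, 4 sodium channel beta subunits, 9 calcium channel pore (alpha1) subunits, 4 alpha2delta subunits, 4 calcium channel beta subunits, 6 gamma subunits and 4 HCN channels.

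The study compared 4 control mice (Sert Cre/+; Stat3 fl/+) with 8 STAT3 KO mice (Sert Cre/+; Stat3 fl/fl), one library per animal, to ask how STAT3 loss from serotonergic neurons acts on these cells and on behaviour. All were adult littermates on a C57BL/6 x 129 background, with 2 females and 2 males among the controls and 4 of each sex among the KO. Cre from the serotonin transporter locus removes the exons that encode the SH2 domain of STAT3 in SERT-expressing cells, and the controls carry the same Cre and 1 floxed allele. RNA came from a block of tissue under the aqueduct that holds glia and other neurons too, so the values are of the tissue and not of the deleted cells. In such bulk RNA, fewer cells of a type and less RNA per cell cannot be told apart.

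Voltage-gated sodium channels open on depolarisation and carry the upstroke of the action potential. Each has a pore-forming alpha subunit and small single-pass beta subunits that alter gating and bind the cytoskeleton and adhesion molecules. Voltage-gated calcium channels turn the action potential into calcium entry. Their alpha1 pore is brought to the membrane and tuned by beta and alpha2delta subunits, and most of the Cacng family are TARPs, which escort AMPA-type glutamate receptors rather than calcium channels. HCN channels open on hyperpolarisation, pass a mixed cation current and help set resting potential and pacemaker activity. Low-voltage-activated calcium channels and HCN channels are known in many neurons for shaping repetitive firing.

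Between 24379588 and 29645210 reads per library were assigned to genes. Stat3 itself, counted over the whole gene, was at 64.7 to 68.0 CPM (counts scaled to a common library total) in controls and 62.8 to 70.1 in KO (log2 fold change -0.01 ± 0.04 SE, adjusted p = 0.992, edgeR quasi-likelihood test), a count that also takes in the undeleted exons and the cells without Cre. Serotonergic markers (Tph2, Slc6a4, Fev, Slc18a2 and Ddc) were present in all libraries, with a summed level of 1453 to 1829 CPM in controls and 1302 to 1949 in KO. Libraries differed in markers of neighbouring regions. The summed forebrain excitatory markers (8 of 8 listed) were at 168 CPM in control 4 and at 9.89 to 72.3 in the other libraries, the cerebellar markers (5 of 5) at 218 and 430 in KO 10 and KO 16 against 19.2 to 93.9 elsewhere, with the highest of the rest in control 3, and the choroid plexus markers (3 of 3) at 212 and 221 in KO 16 and KO 8 against 4.06 to 8.96 elsewhere. Animals are named here by the number in their sample title.

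To compare levels between genes, CPM was divided by the length of all annotated exons of a gene. On this scale, CPM per kb of exon, the leading genes over 12 animals were Hcn2 among HCN channels (117 ± 16.8, SD, n = 12), Scn1a among sodium alpha subunits (32.6 ± 4.65), Cacng7 in the gamma family (28.9 ± 1.84), Cacna2d2 among alpha2delta subunits (19.8 ± 1.95), Cacnb4 among calcium beta subunits (19.5 ± 1.75) and Cacna1b, the N-type pore, among alpha1 subunits (12.7 ± 1.1). With the longest transcript as length, Cacna1a, the P/Q-type pore (15.1), stood above Cacna1b (13.01), and Cacnb3 (22.8) above Cacnb4 (21.3), so the order of these neighbours depends on the gene model. Hcn2 alone made up 86.9% to 90.9% of the summed HCN level per kb of exon in every animal, with Hcn3 at 9.99 CPM per kb of exon and Hcn4 at 1.59. Among sodium alpha subunits, Scn1a was followed by Scn2a1 (18.6 ± 1.67) and Scn8a (17.5 ± 2.15), which lay within 1 SD of each other, while the embryonic-type Scn3a was at 6.00, the peripheral-type Scn9a at 2.61 and the atypical sodium-sensing Scn7a at 1.58. Among sodium beta subunits Scn2b was at 59.2, Scn4b at 42.8 and Scn3b at 21.9. The skeletal muscle pore Cacna1s was lowest of all (0.09), and the retinal alpha2delta Cacna2d4 was at 0.37.

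**Figure D1:**
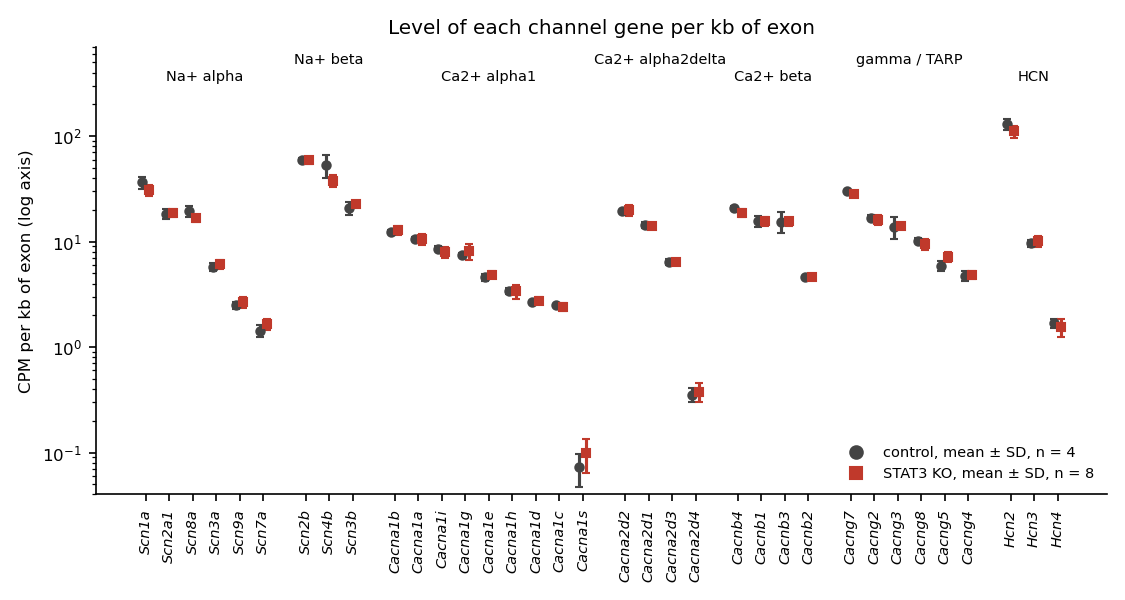
Level of each of 35 channel genes in CPM per kb of exon (log axis), ordered by level within each class. Circles are the mean of 4 controls and squares the mean of 8 STAT3 KO animals, with SD as bars. Hcn2 stood above 100 CPM per kb of exon in both genotypes, and Cacna1s was near 0.1.

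Because STAT3 is a transcription factor whose textbook site is TTCNNNGAA (a palindrome, so the same letters on both strands), the promoters of the members were read from RefSeq on GRCm38.p6, 300 bases from 250 before to 50 after each start. Of the 38 genes 27 had an entry, with 38 promoters in all. The letters occurred in 5 of these 38 promoters (13.2%) against 8.3% of the 32851 promoters in the table. The 5 belonged to Cacna1c, Cacna1i, Scn2a1, Scn2b and Scn9a, none of which had an unadjusted p below 0.05 between genotypes. The GC box (GGGCGG or, for the other strand, CCGCCC) was in 44.7% of the member promoters and 35.7% of all. The 250 bases before the start are given for Scn4b, Scn1a and Scn8a, which were among the genes with the lowest p, and for Scn2b, the closest neighbour of Scn4b. Capitals mark TTCNNNGAA, which in this set is found in Scn2b alone, beginning 154 bases before the start. A match is a match of letters and not a measured binding site.
Scn4b, chr9:45138374-45138623, plus strand: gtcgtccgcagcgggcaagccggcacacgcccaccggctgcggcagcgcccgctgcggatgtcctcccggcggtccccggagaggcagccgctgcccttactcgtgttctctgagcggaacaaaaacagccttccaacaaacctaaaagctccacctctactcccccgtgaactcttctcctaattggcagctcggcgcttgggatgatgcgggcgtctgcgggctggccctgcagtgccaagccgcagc
Scn2b, chr9:45117626-45117875, plus strand: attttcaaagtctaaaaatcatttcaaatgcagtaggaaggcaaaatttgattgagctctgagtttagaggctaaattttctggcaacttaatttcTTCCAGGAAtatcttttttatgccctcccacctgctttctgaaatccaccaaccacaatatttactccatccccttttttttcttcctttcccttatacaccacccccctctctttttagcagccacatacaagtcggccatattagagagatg
Scn1a, chr2:66440838-66441087, minus strand: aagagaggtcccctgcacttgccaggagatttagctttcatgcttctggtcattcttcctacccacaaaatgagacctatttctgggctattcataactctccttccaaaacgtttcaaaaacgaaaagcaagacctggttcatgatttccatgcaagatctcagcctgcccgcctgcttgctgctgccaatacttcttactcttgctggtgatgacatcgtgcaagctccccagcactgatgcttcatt
Scn8a (upstream start), chr15:100870395-100870644, plus strand: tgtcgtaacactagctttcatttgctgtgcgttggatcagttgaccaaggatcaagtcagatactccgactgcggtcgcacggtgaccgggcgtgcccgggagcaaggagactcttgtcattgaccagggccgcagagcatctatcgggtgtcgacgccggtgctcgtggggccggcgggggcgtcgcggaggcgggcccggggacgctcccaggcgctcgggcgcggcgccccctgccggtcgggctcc

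For genotype, none of the 38 genes passed the test across all genes. Adjusted p-values ran from 0.615 to 1 (edgeR quasi-likelihood test, Benjamini-Hochberg over 15453 genes), and 0% of all genes tested passed, the smallest adjusted p of any gene being 0.387. At an unadjusted p below 0.05, 7 genes were lower in KO (18.4% of the 38, against 4.05% of all genes tested), among them Scn4b, Scn8a, Scn1a, Cacnb4 and Hcn2. Another 2 were higher (5.26%, against 3.61% of all genes), namely Cacng5 and Scn7a. By a two-sided exact permutation test over the 495 splits of the animals, 6 of 38 had an unadjusted p below 0.05 (15.8%, against 7.1% of all genes). DESeq2 gave an adjusted p below 0.05 to 0 of the 38 and to 0.03% of all genes. The channel genes share cell types and libraries and are not independent of each other.

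The median log2 fold change of the 38 was 0.00139 beside -0.0011 over all genes tested, with 19 below and 19 above 0 and 23 smaller than 0.1 in size. The lower genes came from the sodium alpha, sodium beta, calcium beta and HCN classes. None of the 9 pore-forming calcium subunits and none of the 4 alpha2delta subunits reached an unadjusted p of 0.05 in either direction. For the genes with a p of 0.05 or more and at least 1000 counts, the 95% interval reached at most 0.34 log2 units to each side of the estimate, so shifts under that size were not detectable in the least precise of them.

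**Figure D2:**
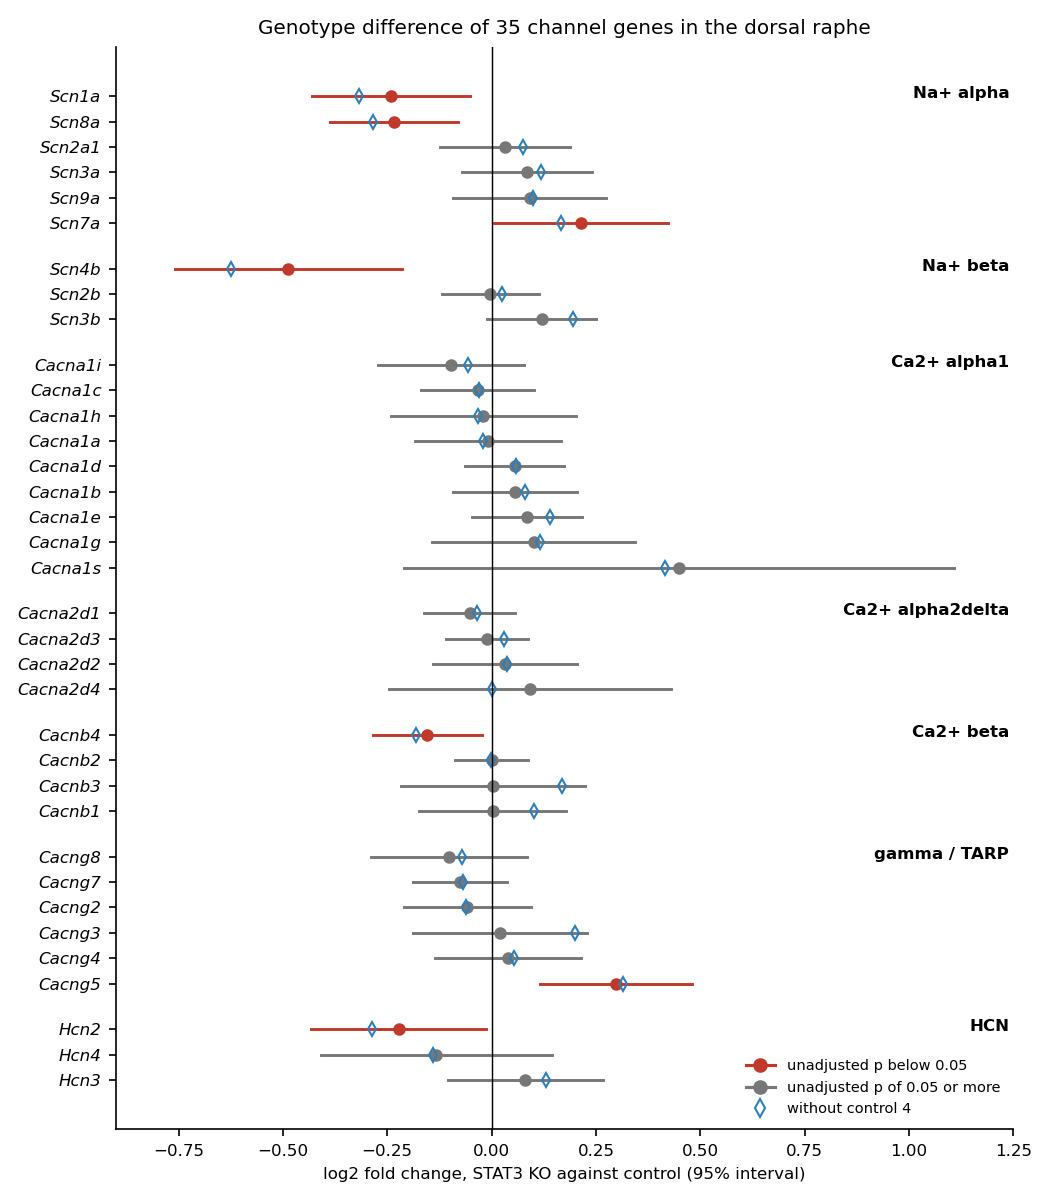
Log2 fold change of STAT3 KO against control for 35 channel genes (circles) with the 95% interval (bars), grouped by class. Red marks an unadjusted p below 0.05 (7 genes, 5 of them lower) and blue diamonds give the estimate without control 4, which lay further below 0 for Scn4b (-0.62 against -0.49).

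Scn4b, the beta subunit proposed as the source of the peptide behind resurgent sodium current, had the smallest p of the 38. It lies on chromosome 9 from 45138395 to 45154152, on the plus strand (GRCm38). Its level was 284, 183, 335 and 252 CPM in controls 13, 4, 3 and 11, and from 152 through a median of 180 to 229 in KO. Control 4 lay within the KO range and the other 3 controls above it. The log2 fold change was -0.49 ± 0.13 SE (264 ± 63.5 against 188 ± 25.5 CPM, SD, unadjusted p = 0.00165, adjusted p = 0.615, edgeR), and 8 of 8 KO animals were below the control mean. The two-sided exact permutation p was 0.0101, where 0.00202 is the smallest the design allows. Without control 4 the difference was -0.62 (adjusted p = 0.0789), and over the 12 fits that each left out 1 animal it ran from -0.62 to -0.35, the weakest without control 3.

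Its neighbour Scn2b, which is disulphide-linked to the pore and whose gene starts on the same strand of chromosome 9 with a gap of 8.32 kb to Scn4b, was at 276 ± 10.2 CPM in controls and 276 ± 19.6 in KO (log2 fold change -0.00, 95% interval -0.12 to 0.11), and the annotated Gm10684 overlaps it. Scn3b, at 107, 130, 95.4 and 121 CPM in controls and from 120 through 121 to 128 in KO, was 0.12 log2 units higher with an unadjusted p of 0.0714 (edgeR). Its estimate ran from 0.05 without control 3 to 0.19 without control 4. Its KO animals lay close together, and the 2 female controls were below all of them.

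Among the sodium pores, Scn8a (Nav1.6, the main channel of nodes and mature axon initial segments) and Scn1a (Nav1.1, prominent in fast-spiking inhibitory neurons) were lower at an unadjusted p below 0.05. Scn8a, on chromosome 15 from 100869858 to 101045938, was at 290, 273, 354 and 313 CPM in controls and from 226 through 256 to 296 in KO, so the highest KO values overlapped the lower controls. Its log2 fold change was -0.23 ± 0.07 SE (unadjusted p = 0.00538, adjusted p = 0.615, edgeR), with an exact permutation p of 0.0141. Scn1a was at 387, 338, 454 and 442 CPM in controls and from 293 through 339 to 406 in KO. Control 4 was again the lowest control, at about the KO median, and KO 8 was the highest KO animal. The log2 fold change of Scn1a was -0.24 ± 0.09 SE (unadjusted p = 0.0164, edgeR, and exact permutation p = 0.0505), and the unadjusted p rose to 0.084 without control 3.

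The other sodium pores had estimates above 0. Scn7a, which does not form a classical voltage-gated channel and is known from glia and sensory organs of salt balance, was at 9.94, 9.38, 10.1 and 12.4 CPM in controls and from 10.7 through 11.6 to 15.0 in KO, with 8 of 8 KO animals above the control mean. Its log2 fold change was 0.21 ± 0.10 SE (unadjusted p = 0.0439, edgeR, and exact permutation p = 0.0586), and the unadjusted p was 0.143 without control 4. Scn2a1 (Nav1.2, listed as Scn2a in the annotation) was at 233 ± 26.4 CPM in controls and 238 ± 19.98 in KO. Scn3a (0.09) and Scn9a (0.09) had log2 fold changes whose 95% intervals included 0, and reads of Scn9a may be shared with the overlapping gene Gm13629.

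Summed markers of fast-firing neurons (Pvalb, Syt2, Nefh, Kcnc1, Kcna1, Spp1 and Vamp1, all 7 listed and none at 0) were read beside the lower sodium and HCN genes. Their sum was 2779, 2107, 3144 and 2761 CPM in controls 13, 4, 3 and 11 and 1991 to 2575 in KO, and 5 of the 7 were lower in KO at an unadjusted p below 0.05 (edgeR, beside 4.05% of all genes). Pvalb (log2 fold change -0.21, unadjusted p = 0.224, edgeR) and Kcnc1 (-0.13, unadjusted p = 0.0661, edgeR) were not among these. For the sum, as for Scn4b, Scn8a and Scn1a, control 3 was highest and control 4 lowest among controls. In KO 8 the sum was 2217 CPM, within the range of the other KO animals. In the same animal Scn1a had its highest KO value, and Scn8a and Hcn2 had their lowest. Of the dopaminergic markers (Th, Slc6a3 and Ddc, all 3 listed and none at 0, with a sum of 438 to 483 CPM in controls and 322 to 488 in KO), 1 was lower at an unadjusted p below 0.05 (edgeR, beside the same 4.05%), and Slc6a3 and Th were also highest in control 3 (114 and 86.8 CPM) and lowest in control 4 (18.95 and 31.6 CPM) among controls, while Ddc ran the other way (282.5 CPM in control 3, its lowest control, and 390.3 in control 4, its highest). Summed pan-neuronal markers were at 3881 to 4014 CPM in controls and 3400 to 3926 in KO, and 1 of the 4, Snap25, was lower at an unadjusted p below 0.05 (log2 fold change -0.17, edgeR). The part of these markers in the channel gene differences was not tested.

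Among HCN channels, Hcn2, the abundant isoform and strongly sensitive to cAMP, was at 428, 357, 471 and 403 CPM in controls and from 255 through 358 to 401 in KO, the lowest being KO 8. The log2 fold change was -0.22 ± 0.10 SE (unadjusted p = 0.0391, edgeR, and exact permutation p = 0.0869), and the unadjusted p reached 0.172 without control 3. Hcn4, the slow isoform of the sinoatrial node (-0.13 ± 0.13 SE), and Hcn3 (0.08 ± 0.09 SE) had 95% intervals of the log2 fold change that included 0. Hcn2 made up 89.7% ± 1.21 of the summed HCN level per kb of exon in controls and 88.3% ± 1.09 in KO.

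**Figure D3:**
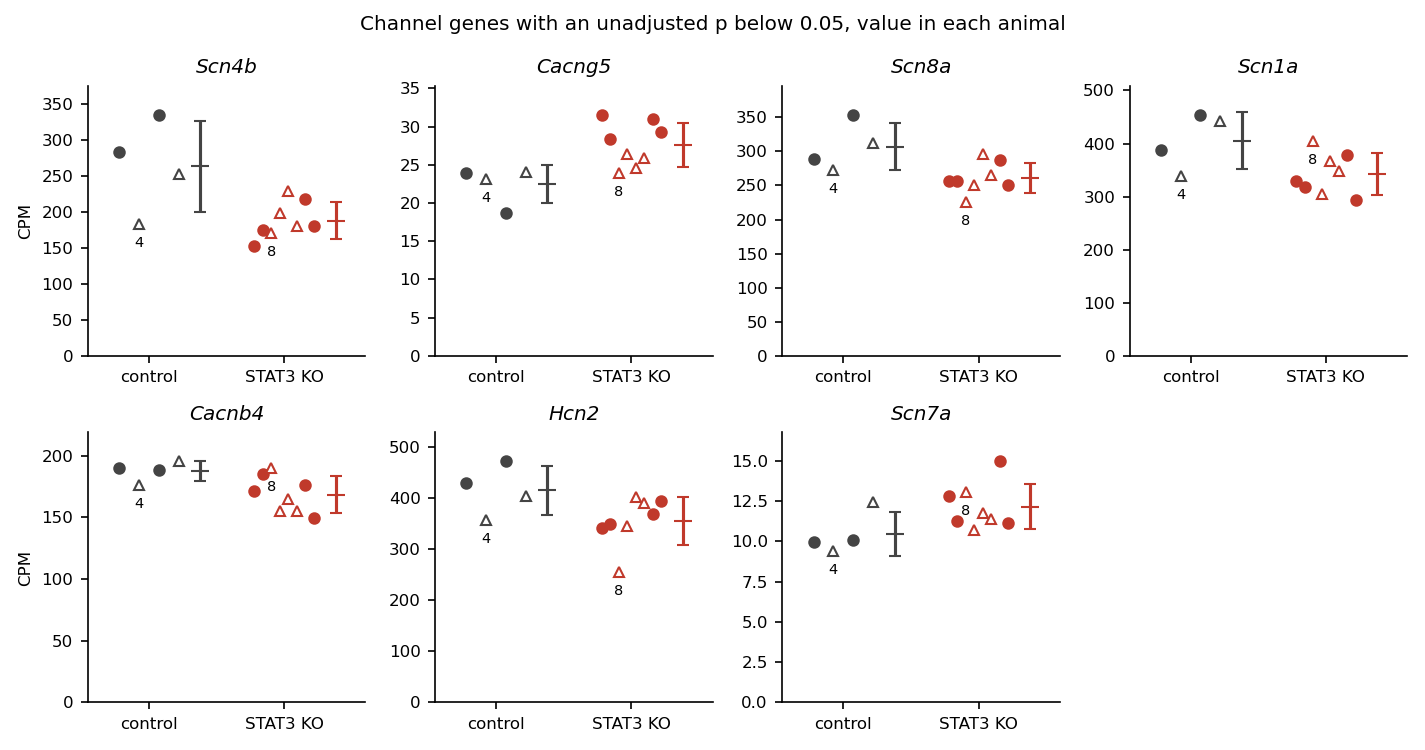
CPM of 7 channel genes with an unadjusted p below 0.05 in each animal (filled circles female, open triangles male), with mean ± SD beside them (n = 4 control, n = 8 STAT3 KO) and control 4 and KO 8 numbered. Axes start at 0. The groups overlap for each of the 7, and control 4 is the lowest control for Scn4b, Scn8a, Scn1a, Cacnb4, Hcn2 and Scn7a.

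Of the calcium channel beta subunits, which carry the pore to the membrane, Cacnb4 was at 190, 176, 188 and 195 CPM in controls and from 150 through 168 to 190 in KO. Most KO animals lay below the controls, and KO 8 and KO 16 within their range. The log2 fold change was -0.15 ± 0.06 SE (unadjusted p = 0.0245, edgeR, and exact permutation p = 0.0485), and the unadjusted p was 0.0837 without control 11. Cacnb1, Cacnb2 and Cacnb3 each had a log2 fold change that rounds to 0.00, and Cacnb3 was at 82.1 CPM in control 4 against 51.3 to 59.3 in the other controls. Without control 4 the log2 fold change of Cacnb3 was 0.17 and that of Cacnb1 0.10.

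Cacna1b was at 119, 129, 117 and 128 CPM in controls and from 104 through 130 to 147 in KO (log2 fold change 0.06, 95% interval -0.09 to 0.20). Cacna1a had a log2 fold change of -0.01 (95% interval -0.18 to 0.17), the R-type Cacna1e of 0.08, and the L-type Cacna1c and Cacna1d of -0.03 and 0.06, the last 2 with annotated neighbours (Dcp1b for Cacna1c, Chdh and Dcp1a for Cacna1d) that overlap them. The low-voltage-activated T-type pores Cacna1g, Cacna1h and Cacna1i were at 0.10, -0.02 and -0.10. Cacna1s had the largest estimate of the class (0.45, 95% interval -0.21 to 1.11), on 0.54, 0.44, 0.26 and 0.66 CPM in controls and 0.39 through 0.57 to 1.03 in KO. These are few reads, and the genotypes overlap, with KO 7, 16 and 14 above every control.

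Among the alpha2delta subunits, extracellular proteins that raise surface channel number and are the target of gabapentin in the case of Cacna2d1 and Cacna2d2, Cacna2d2 was at 148, 155, 159 and 157 CPM in controls and from 122 through 163 to 182 in KO. The log2 fold changes of the 4 genes lay between -0.05 (Cacna2d1) and 0.09 (Cacna2d4, which Lrtm2 overlaps).

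In the gamma family, Cacng5, a type II TARP, was higher in KO. It lies on chromosome 11 from 107874605 to 107915055 and was at 23.95, 23.2, 18.8 and 24.1 CPM in controls and from 23.9 through 27.4 to 31.5 in KO. KO 8, the lowest KO animal, was just under control 13 and control 11, and control 3 stood apart below. The log2 fold change was 0.30 ± 0.09 SE (unadjusted p = 0.00337, adjusted p = 0.615, edgeR, and exact permutation p = 0.0101), with 8 of 8 KO animals above the control mean. Cacng7, the most abundant of the family per kb, was at 70.9, 73.6, 73.9 and 73.3 CPM in controls and from 60.7 through 68.8 to 76.0 in KO (log2 fold change -0.08, unadjusted p = 0.171, edgeR). Cacng2 (stargazin), Cacng3, Cacng4 and Cacng8 had log2 fold changes of -0.06, 0.02, 0.04 and -0.10. Cacng3 was at 51.3 CPM in control 4 against 31.4 to 35.2 in the other controls, and without control 4 its log2 fold change was 0.20.

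Several members are neighbours, and the ratio of neighbours within a library does not depend on library size. The pairs were formed after the values were seen, so no p-value is given for them. There were 12 pairs of members of the same class less than 1000 kb apart, and some are given here. Scn3a, Scn2a1, Scn1a, Scn9a and Scn7a form a cluster on chromosome 2 between 65457118 and 66784914. The log2 ratio of the CPM of Scn1a to that of Scn7a, 233 kb apart, was 5.15 to 5.48 in controls and 4.65 to 4.95 in KO, without overlap. It was the only one of the 12 pairs without overlap. Scn1a and Scn7a were already described as lower and higher in KO, so this ratio restates those values and is not a further result. That of Scn2a1 to Scn1a was -1.11 to -0.42 in controls and -0.65 to -0.34 in KO, and that of Scn3a to Scn2a1, 53.1 kb apart, was -1.74 to -1.57 and -1.78 to -1.56. The log2 ratio of Scn2b to Scn4b was 0.10 ± 0.40 in controls and 0.56 ± 0.23 in KO, with overlap. For Cacng4 to Cacng5 on chromosome 11 it was -0.41 ± 0.11 in controls and -0.67 ± 0.14 in KO.

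Single libraries bore on the members unequally. KO 8 had the lowest KO value for 23 of 38 genes (60.5%), while it was the lowest for 23.8% of all genes tested. This took in 6 of 6 gamma family genes and 7 of 9 calcium pores, but 2 of 7 sodium alpha subunits. KO 8 is also a library with high choroid plexus markers. KO 16, with a choroid plexus sum of 212 CPM, had the lowest KO value for 2 of the 38 genes. The part of these markers was not tested. Among controls, control 3 was highest for 15 of the 38 genes and lowest for 14. The other controls were highest for 0 to 12 and lowest for 5 to 10, and the shares over all genes were not computed. Without control 4, the library with high forebrain markers, 7 genes were lower (4.92% of all genes) and 5 higher (4.04%), the 5 being Cacna1e, Cacng5, Cacnb3, Cacng3 and Scn3b, and 0 passed the adjusted threshold. Without the 5 libraries with high markers of other regions (controls 4 and 3, KO 10, 16 and 8), which leaves 2 controls, and KO 7 and KO 14 with cerebellar sums of 79.5 and 72.8 CPM, 5 were lower (4.14% of all genes), among them Scn4b, Scn1a and Cacnb4, and 3 higher (3.58%), namely Cacnb1, Cacnb3 and Cacng3. In that fit the log2 fold changes of Scn8a (-0.15), Hcn2 (-0.13), Cacng5 (0.19) and Scn7a (0.10) kept their sign. Their unadjusted p-values were 0.0543 or more (edgeR).

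**Figure D4:**
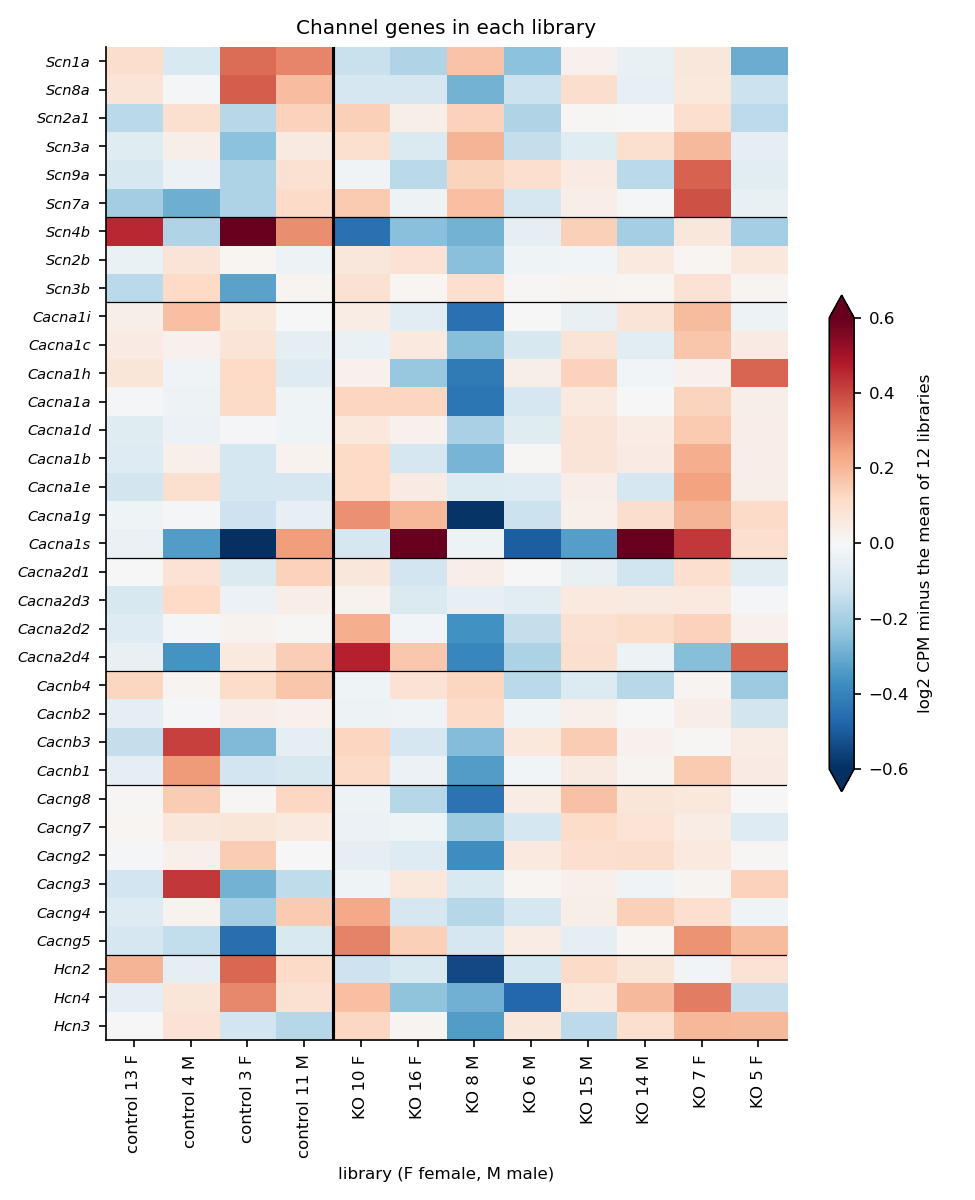
Log2 CPM of 35 channel genes (rows, grouped by class) in each of 12 libraries (columns, controls left of the line), as the difference from the mean of the 12. KO 8 is blue, that is low, for most calcium pore and gamma family genes, and control 3 is red for Scn4b, Scn1a, Scn8a and Hcn2.

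The controls are 2 females and 2 males, and the estimates of several members lay further from 0 in females. No member passed the adjusted threshold for the genotype by sex interaction (smallest adjusted p = 0.898, edgeR, with 0% of all genes passing), while 7 had an unadjusted p below 0.05 (18.4%, against 5.49% of all genes). These were Scn3b, Cacng5, Scn4b, Cacna1e, Scn2a1, Cacng3 and Cacnb3. Scn4b was at 284 and 335 CPM in female controls and from 152 through 177 to 217 in female KO, without overlap, and at 183 and 252 in male controls and from 171 through 190 to 229 in male KO. Its log2 fold change was -0.77 in females and -0.16 in males (difference 0.61 ± 0.21 SE, adjusted p = 0.903, edgeR). Scn3b was at 107 and 95.4 CPM in female controls and 120 to 127 in female KO, and at 130 and 121 in male controls and 120 to 128 in male KO (difference -0.33 ± 0.08 SE, adjusted p = 0.898, edgeR). Cacng5 had log2 fold changes of 0.50 in females and 0.09 in males.

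In females alone 6 members were lower (5.81% of all genes) and 11 higher (6.95%) at an unadjusted p below 0.05, with a smallest adjusted p of 0.0908 (edgeR). In males alone 0 were lower (1.38% of all genes) and 0 higher (0.768%), in a group that includes control 4 and KO 8. Female controls are controls 13 and 3, so sex and these libraries cannot be told apart in 2 against 2 controls. Cacng3, Cacnb3 and Cacna1e, whose estimates differ in sign between the sexes, were also high in control 4, and Cacng3 was the member that passed the interaction test without control 11 (adjusted p = 0.0385, edgeR). In that fit 37 genes passed in all (0.238% of all genes), and control 4 is the lone male control and is assumed to vary like the other groups. Sex itself gave 0 members an adjusted p below 0.05 (0.0841% of all genes) and 2 an unadjusted one (7.2% of all genes). These were Cacna1a and Cacna1c, with male minus female log2 differences of -0.17 and -0.12.

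**Figure D5:**
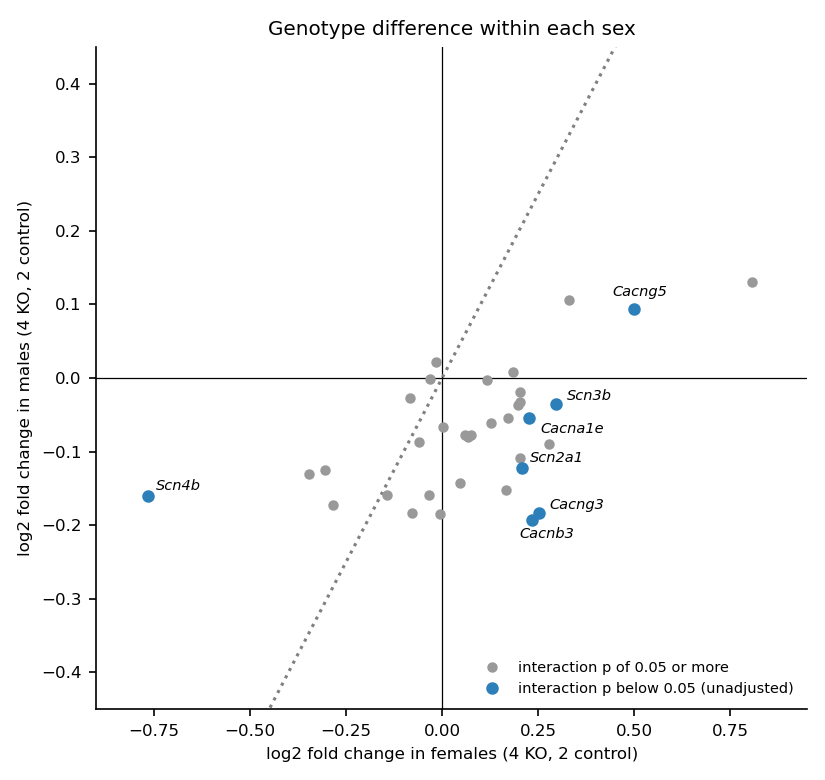
Log2 fold change of STAT3 KO against control in females (horizontal) and males (vertical) for 35 channel genes, with 4 KO and 2 controls in each sex. Blue marks the 7 genes with an unadjusted interaction p below 0.05, and the dotted line marks equal differences. Scn4b lies at -0.77 in females and -0.16 in males.

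Proteins that bind, anchor or modulate these channels were read from a list of 32 symbols, of which 30 were tested. The list was chosen with earlier results of these data known, so low p-values within it, such as that of Stac2, are not independent findings. Of these 6 were lower in KO and 0 higher at an unadjusted p below 0.05 (beside 4.05% and 3.61% of all genes), 0 passed the adjusted threshold, and the median log2 fold change was -0.07 with 23 of 30 below 0. Stac2, an adaptor that slows inactivation of L-type channels, was at 86.0, 68.1, 71.9 and 69.0 CPM in controls and from 39.5 through 52.3 to 64.5 in KO, without overlap (log2 fold change -0.49 ± 0.09 SE, unadjusted p = 0.0001, adjusted p = 0.387, edgeR, and exact permutation p = 0.00202, the smallest possible). Pex5l (TRIP8b), which sets HCN channel trafficking, was at 251, 246, 271 and 256 CPM in controls and from 194 through 217 to 251 in KO (log2 fold change -0.20). Ank3 (ankyrin-G), which holds sodium channels at the axon initial segment, had a log2 fold change of -0.13 ± 0.05 SE. Calm3, which encodes the calmodulin shared by sodium and calcium channels, was at -0.07, and the calmodulin-like Cabp1 at -0.23. Another calmodulin gene, Calm2, was at 0.01, and the intracellular sodium channel partners Fgf11, Fgf12, Fgf13 and Fgf14 ran from -0.16 to 0.04 with unadjusted p-values of 0.0713 or more (edgeR).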

How the data were processed

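RNA of 12 dorsal raphe samples (4 control, 8 STAT3 KO) was sequenced. Per the labels, the authors aligned reads with STAR 2.5.0b to mm10 and named DESeq2 1.6.3, and they deposited whole-number counts per gene, with no normalization. The counter, annotation and strand setting are not given in the sources used here, so reads of overlapping or antisense genes cannot be told apart. Rows of reads without a feature or ambiguous took 13.9% to 15.8% of each file and were left out of library sizes. Each library is 1 animal, and p-values measure the spread between these 12.

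Genes were kept by filterByExpr (minimum count 10, minimum total 15), scaled by TMM and tested on the whole table with edgeR 4.0.16 (glmQLFit and glmQLFTest, two-sided, R 4.3.3), with Benjamini-Hochberg adjustment at 0.05 over 15453 genes, and all 38 members passed the filter. Single genes were also tested by exact permutation of log2 CPM (prior count 2) over 495 splits. The test was checked on simulated data. CPM uses the TMM library size. Exon lengths and positions come from GENCODE vM21 on GRCm38, the same assembly as mm10, and promoters from RefSeq on GRCm38.p6. DESeq2 1.42.0 and limma 3.58.1 (voom with quality weights) were alternatives, along with other scaling, filters, sex as a covariate and leaving out each animal. Fits within each sex, and without 5 libraries with high markers of other regions, were chosen after seeing the data.

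Values by animal were given for the 12 members with the lowest p, those without overlap between genotypes and the most abundant of each class, except for some genes that are counted but not reported here by name. The members, marker lists and partner list were chosen with earlier results of these data known, so no list carries a test of its own.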

Additional observations from a re-analysis of the deposited data

Results flagged for a closer look

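Each channel gene was examined in the 4 controls and in the 8 STAT3 KO animals, which makes 76 groups of values, for a library whose gap to its nearest neighbour is a large share of the group's range. Chance flags about 1 in 20 groups, or 3.8 here, and 10 were found, 7 of them in KO 8 and 2 in control 4.

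In KO 8 the low values were those of Scn2b (231 CPM against 270 to 292 in the other KO animals, gap 0.668 of the range on the log2 scale), Hcn2 (255 against 340 to 401, gap 0.638), Cacng2 (69.4 against 85.2 to 96.6, gap 0.621), Cacnb1 (55.9 against 68.8 to 78.6, gap 0.609), Cacna1i (58.9 against 76.6 to 91.6, gap 0.595), Cacna1a (88.5 against 111 to 131, gap 0.583) and Cacna1g (52.7 against 72.4 to 95.8, gap 0.531). The 7 genes come from sodium beta, HCN, TARP, calcium beta and pore classes, and not from the sodium alpha class.

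In control 4, Cacna1e was high (128 CPM against 111 to 112 in the other controls, gap 0.959), as was Cacnb1 (84.3 against 65.2 to 67.6, gap 0.859). In control 3, Cacng5 was low (18.8 CPM against 23.2 to 24.1, gap 0.849).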

How the results depend on the processing

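Under every setting run, 0 channel genes passed the adjusted threshold for genotype or for sex. Over all genes, 0 were called by edgeR, 6 by DESeq2 and 2 in males only, and 0 to 1 when 1 animal was left out (1 without control 4). The 7 lower channel genes at an unadjusted p below 0.05 became 0 in males only and 4 to 7 with 1 animal left out (4 without control 3 and 4 without control 11). The 2 higher ones became 11 in females only, 0 in males only and 1 to 5 with 1 animal left out (5 without control 4, and 1 without each of controls 13 and 3 and KO 10, 15 and 7). The median log2 fold change of the channel genes was 0.0967 in females only and -0.0792 in males only, and ran from -0.0129 to 0.0346 with 1 animal left out. The 6 partner genes became 10 in females only, 2 in males only, and 2 to 11 with 1 animal left out (11 without control 4, 2 without control 3). For the genotype by sex interaction, no channel gene was called with 1 KO animal left out. A fit without 1 of the controls leaves a lone control of that sex, so no call is read from it. Fewer animals are in each of the single-sex fits, and otherwise the cause was not tested. No result reversed at a called value. The 9 genes with an unadjusted p below 0.05 kept their sign in 189 of 189 recomputed fold changes, while over all channel genes 83 of 797 changed sign, in 24 genes, and 2 of 114 recomputed permutation p-values moved across 0.05. No paired analysis was possible, as the genotypes share no replicate numbers and the litter of each animal is not given in the sources used here. Differences between litters are therefore not modelled. The 4 controls limit the precision, and the depth allows an upper limit of 0.101 to 0.123 CPM where a gene has 0 counts (3 counts, counting error only).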
